A study of Homo sapiens with 3 samples.

Results

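The 4 TCF/LEF transcription factors of the Wnt pathway, LEF1, TCF7, TCF7L1 and TCF7L2, and 6 genes that Wnt signalling is known to induce, AXIN2, APCDD1, TNFRSF19, NKD1, ZNRF3 and RNF43, were examined for accessible chromatin in human brain endothelial cells. These 10 genes were chosen by symbol in a GRCh38 gene table with 20037 protein-coding genes, and all 10 were found there once. The material was hCMEC/D3, an immortalized clonal line of human brain microvascular endothelial cells, which line the small vessels of the brain. Confluent cultures on collagen-coated plates were used, and no treatment is labelled. One ATAC-seq library, replicate 2, was used. ATAC-seq marks open chromatin by the cuts of the Tn5 transposase, and the library held 22188172 tags after the peak caller kept 1 tag per position. The 2 RNA libraries of the same line were not analysed here, because the tables used do not link their transcripts to genes. With 1 library there is no replicate error and no test between groups, and the values below describe this library.

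In the canonical Wnt pathway, ligands bind Frizzled receptors together with LRP5 or LRP6, and β-catenin then escapes destruction and enters the nucleus. There it binds TCF/LEF factors, which recognise DNA through an HMG box and otherwise recruit corepressors of the TLE family. Many direct targets are feedback inhibitors of the pathway. In brain endothelium, β-catenin signalling is known for inducing and maintaining the blood-brain barrier.

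The peak list holds 106415 broad peaks. Each has a length, a pileup and a fold; in the caller's broad mode the pileup (in tags) and the fold (pileup over a background estimated from the same library) are means over the region. A peak was counted for a gene when it overlapped the gene or 10 kb on either side, and it was placed at a gene end when it overlapped the 1 kb on either side of either end. Of 15 endothelial marker genes, 14 had a peak at an end, FLI1 being without one. The highest pileup of each gene, over all its peaks in the gene or 10 kb on either side, had a median of 72.0 tags over the 15 genes. A peak at an end was also found for 5 of 8 mural, 5 of 8 neural or glial, 4 of 6 epithelial and 4 of 7 blood cell markers, with medians of 38.6, 42.8, 41.7 and 54.9 tags. All protein-coding genes gave 72.8% and a median of 47.4 tags, so the lists of other cell types were not far below all genes. The blood median was above that of all genes, but these medians count peaks away from ends too. Some pathway lists given below reached shares as high as the endothelial one, so these counts do not test the cell type. The tallest end peak of each list was at EGFL7 (75.0 tags, endothelial), RGS5 (56.8, mural), SYT1 (48.0, neural), KRT8 (77.4, epithelial) and CD3E (28.5, blood). The EGFL7 peak had a fold of only 1.87 and also lay at an end of AGPAT2. The RGS5 peak also lay at ends of NUF2 and LOC127814295, and the KRT8 peak at an end of KRT18. No peak was called in or within 10 kb of the mural genes ABCC9 and KCNJ8 or the astrocyte gene AQP4. An accessible end is not a measure of expression.

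The 10 genes held 89 peaks, of which 12 lay at a gene end, 68 inside the gene and 9 in the flanks. The 4 factors accounted for 60 of them, and TCF7L1 and TCF7L2 alone for 43. The 6 target genes held 29. These counts are not adjusted for gene length, and TCF7L1 and TCF7L2 are the longest of the 10 genes (177.0 and 217.4 kb). A peak at an end was found for 8 of the 10 genes, compared with 72.8% of all protein-coding genes and with 79.0% to 83.6% of the 500 genes nearest in length to each member, so the count was near its background. TCF7 and TNFRSF19 had none. Every member had at least 1 peak in the gene or within 10 kb, as did 89.8% of all protein-coding genes. At both ends, peaks were found for 2 members, TCF7L1 and RNF43, compared with 15.4% of protein-coding genes. Of the 89 peaks, 10 also lay within 1 kb of an end of another gene, so the list does not assign them to the member alone. The farthest peak counted lay 8.1 kb outside TCF7L1, and the nearest one left out lay 10.9 kb outside TNFRSF19.

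**Figure D1:**
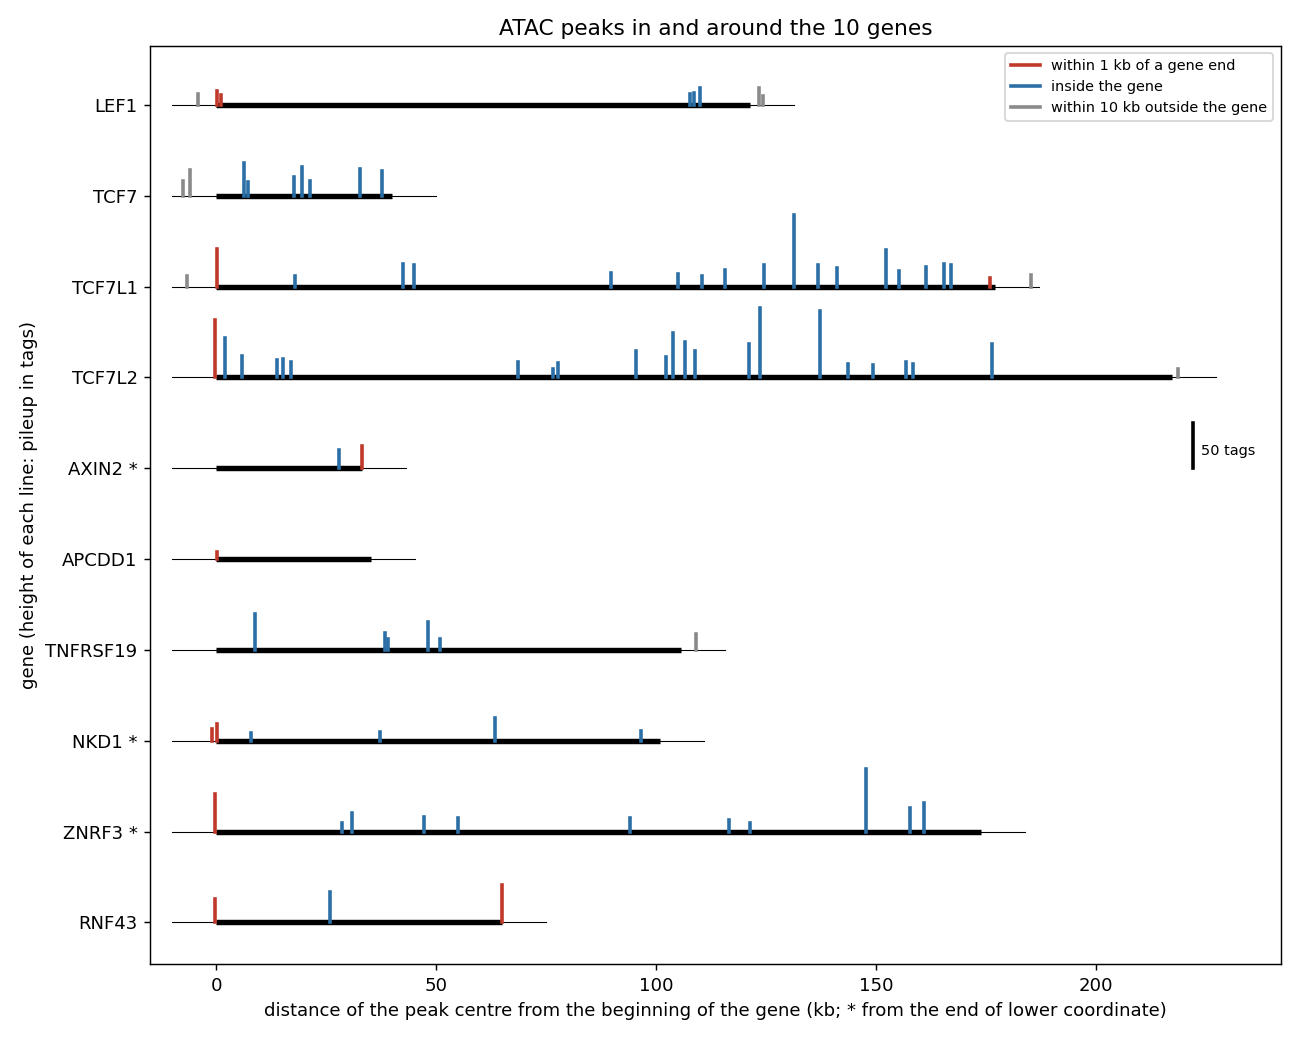
Each row is 1 gene drawn to scale as a thick line with 10 kb on either side as a thin line, against the distance in kb from its beginning; vertical lines are peaks with the pileup in tags as height (scale bar, 50 tags), coloured by position. Rows marked * have no strand in the tables used and start from the end of lower coordinate. Peaks are most numerous in TCF7L1 and TCF7L2 and densest in TCF7. Without flanks, TCF7 has 17.5 peaks per 100 kb of gene, TCF7L1 10.2 and TCF7L2 10.1. APCDD1 has 1 low peak.

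Among the factors, TCF7L2 had the most peaks. TCF7L2 (chromosome 10, 217.4 kb), which encodes a β-catenin partner also called TCF4, carried 23 peaks, with 1 at the start, 21 inside and 1 in the flank. The median of its 500 length neighbours, genes of 190.3 to 251.7 kb, was 10 peaks, and TCF7L2 stood at their 87.1 percentile (the share of neighbours with fewer peaks, ties counted by midrank). The peak over its start, chr10:112949578-112950455, piled up 63.1 tags at a fold of 4.63, at the 84.3 percentile of pileup among end peaks of all protein-coding genes. Its tallest peak, chr10:113073513-113074398, lay inside the gene, 123.7 kb from the start, with 76.7 tags and a fold of 5.66. Another inside peak, chr10:113087090-113087969, reached 72.8 tags and a fold of 7.58. These inside peaks stood at the 98.8 and 98.4 percentiles of pileup among all peaks inside protein-coding genes.

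The 7 peaks of TCF7L2 between 100 and 140 kb from its start included its 2 tallest inside peaks. Solved from pileup and fold, their local background was 7.69 to 12.87 tags, compared with a median of 3.06 tags for its other peaks and a floor of 2.37 tags in the library. It was as high near the start, at 12.86, 14.39 and 9.30 tags for the 3 peaks within 10 kb of it. With no control, the caller takes this background from tags of the same library over a range of 10000 bp. Tags of the peak itself and of nearby peaks therefore count in it. Folds in the stretch ran from 2.66 to 7.58, and a peak 121.2 kb from the start had 36.95 tags and a fold of 2.74. The longest stretch between neighbouring peaks of TCF7L2 was 51.2 kb.

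The highest fold in TCF7L2 was at an inner start. The RefSeq promoter set used holds 3 starts for the gene, the second 176.4 kb inside it. The peak chr10:113126411-113127070 covered 272 of the 300 bases of the promoter window of that start (250 bases before to 50 after), with 36.4 tags and a fold of 9.03, at the 98.2 percentile of fold among inside peaks. The third start, 179.0 kb inside, had no peak over its window. The second window is shown because it is the member start under a peak that holds a TCF/LEF word. The 250 bases before this start are given 5′ to 3′ on the plus strand (RefSeq, GRCh38.p14, chr10:113126383-113126632), with the word in capitals.
TCF7L2 second start: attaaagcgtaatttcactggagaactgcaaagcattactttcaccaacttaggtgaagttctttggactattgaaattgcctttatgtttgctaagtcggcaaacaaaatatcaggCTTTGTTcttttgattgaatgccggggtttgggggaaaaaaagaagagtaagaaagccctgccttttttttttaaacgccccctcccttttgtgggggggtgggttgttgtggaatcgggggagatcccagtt
The word, CTTTGTT, lies 133 to 127 bases before the start, within the peak.

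TCF7L1 (chromosome 2, 177.0 kb), whose product, also called TCF3, is known mainly as a repressor of Wnt targets, carried 20 peaks. This was at the 92.3 percentile of genes of 157.8 to 198.7 kb, whose median was 9. The peak over its start, chr2:85132827-85134098, was 1272 bp long with 41.5 tags and a fold of 5.10, at the 52.6 percentile of end peaks. The tallest peak of all 89 lay inside TCF7L1, 131.3 kb from the start, at chr2:85264282-85265051, with 78.9 tags and a fold of 7.85, at the 99.0 percentile of inside peaks. A second inside peak, chr2:85285254-85285843, had 39.96 tags and a fold of 8.48. In TCF7L1, 12 peaks lay between 100 and 170 kb from the start. At the far end, a peak of 9.59 tags and a fold of 2.88 was called.

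TCF7 (chromosome 5, 39993 bp) encodes TCF-1, known for its role in T cells. It carried 9 peaks, 7 inside and 2 in the flank, compared with a median of 4 for genes of 37.9 to 42.1 kb (92.8 percentile). No peak lay at either end of the gene in the table. The RefSeq promoter set used holds 2 starts, 7.4 and 15.4 kb inside that extent. The first had a weak peak over it, chr5:134115360-134115656, with 15.6 tags, a fold of 2.36 and a −log10 q of 1.81. A taller one, chr5:134114228-134114850, with 35.7 tags and a fold of 5.30, ended 509 bases before it and was the tallest of the gene. Both also lay within 1 kb of an end of VDAC1, which encodes a mitochondrial channel. The window of the second start had no peak and holds the word CTTTGTT on the opposite strand, 50 to 44 bases before the start.

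LEF1 (chromosome 4, 121.4 kb), the remaining factor, known as a Wnt target itself, had the fewest peaks of the 4 factors and the lowest maximum. Its 8 peaks equalled the median of genes of 112.3 to 130.7 kb (53.0 percentile). The tallest had 19.0 tags, and 42 of the 500 length neighbours had a highest pileup as low or lower (8.4 percentile). The 2 peaks at its start side, chr4:108168499-108168915 with 15.5 tags and a fold of 3.30 and chr4:108167467-108168113 with 11.2 tags and a fold of 2.91, also lay at ends of LEF1-AS1 and LOC124900752. The RefSeq promoter set used holds a single start for LEF1, 2631 bases inside the gene extent. No peak lay over its window, and the nearest was 1166 bases away. The taller start-side peak was centred 0.2 kb from the beginning of the gene extent, where the set holds no start. The inside peaks of LEF1 were 3 in number, 107.8 to 110.1 kb from the beginning of the gene, and the gene body before them was without a peak for 106.2 kb. When the −log10 q had to reach 5, LEF1 kept 2 peaks, no end peak, and the 18.1 percentile.

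**Figure D2:**
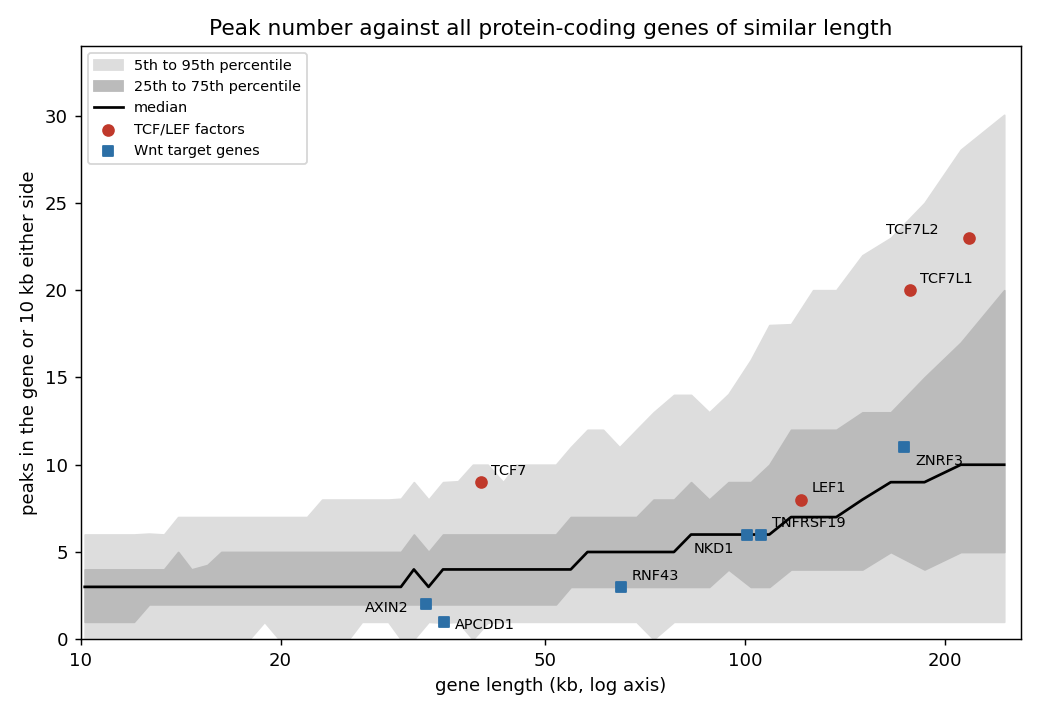
Number of peaks in each gene or 10 kb on either side against gene length in kb (log axis); the line and bands give the median and percentiles of successive groups of 500 protein-coding genes ordered by length. TCF7, TCF7L1 and TCF7L2, with 9, 20 and 23 peaks, lie above the 75th percentile, and APCDD1, with 1 peak, lies near the bottom.

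Of the target genes, ZNRF3 had the most peaks and the highest pileup. ZNRF3 and RNF43 encode transmembrane ligases that remove Frizzled from the cell surface and are countered by R-spondins. ZNRF3 (chromosome 22, 173.9 kb) carried 11 peaks (63.4 percentile, median of length neighbours 9). The peak at its end of lower coordinate, chr22:28882692-28883879, had 40.95 tags and a fold of 5.25. Its tallest, chr22:29030703-29032035, was 1333 bp long with 69.5 tags and a fold of 5.83, and also lay within 1 kb of an end of ZNRF3-AS1. The widest of all 89 peaks, 1851 bp, was a low one of 15.5 tags inside ZNRF3.

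RNF43 (chromosome 17, 65.0 kb) carried 3 peaks, compared with a median of 5 (30.7 percentile, 24.7 to 49.8 under the alternative settings). The peak over its outermost start, chr17:58417505-58417921, had 25.6 tags and a fold of 7.87, at the 27.3 percentile of pileup but the 95.7 percentile of fold among end peaks; its background was at the floor of 2.37 tags. The second listed start, 14.8 kb inside, had no peak over it. An inside peak, chr17:58391400-58391981, had 33.1 tags and the highest fold of the 89 peaks, 10.01, at the 99.4 percentile of inside peaks. The tallest, chr17:58351846-58353215 with 41.4 tags, lay at the far end of RNF43, where it also overlapped the windows at ends of SUPT4H1 and TSPOAP1-AS1.

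TNFRSF19 encodes TROY, an orphan receptor of the tumour necrosis factor receptor family. Its 6 peaks (chromosome 13, 105.7 kb, 49.0 percentile) equalled the median of its length neighbours, and none lay at an end. The RefSeq promoter set used holds 2 starts. The outermost had its nearest peak 8277 bases away. The second, 8.9 kb inside, lay wholly under the tallest peak of the gene, chr13:23578689-23579705, with 39.2 tags and a fold of 6.89, at the 88.5 percentile of fold among inside peaks. The same arrangement, a peak over an inner start and none over the outermost, was found in 12.8% of the 4057 protein-coding genes with several listed starts. A further inside peak, chr13:23618314-23618738, had 30.4 tags and a fold of 8.46.

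APCDD1 encodes a membrane glycoprotein that inhibits Wnt signalling. This gene (chromosome 18, 35.3 kb) carried 1 peak, compared with a median of 4 for its length neighbours (11.4 percentile, 3.3 to 29.3 under the alternative settings). The peak, chr18:10454715-10455216, had 8.27 tags and a fold of 2.75, with the lowest pileup in the whole list at 8.0 tags. A highest pileup this low or lower, genes without a peak included, was found for 26 of the 500 length neighbours. The peak began 80 bases after the start, and beyond the 10 kb flanks the nearest peak was 28.6 kb away. No peak of APCDD1 reached a −log10 q of 5 or a fold of 4.

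The 250 bases before the starts of TNFRSF19 and of APCDD1 are shown because the windows differ in CpG content and in whether a peak lay over them. Sequences are 5′ to 3′ on the plus strand (RefSeq, GRCh38.p14), with CG in capitals, at chr13:23570162-23570411 and chr13:23579110-23579359 for TNFRSF19 and at chr18:10454385-10454634 for APCDD1.
TNFRSF19 outermost start, without a peak: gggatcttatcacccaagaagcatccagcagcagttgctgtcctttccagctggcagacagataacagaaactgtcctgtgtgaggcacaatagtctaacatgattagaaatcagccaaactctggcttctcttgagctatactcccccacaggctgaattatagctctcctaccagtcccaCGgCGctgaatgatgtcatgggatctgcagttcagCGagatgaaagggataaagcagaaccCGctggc
TNFRSF19 second start, under a peak: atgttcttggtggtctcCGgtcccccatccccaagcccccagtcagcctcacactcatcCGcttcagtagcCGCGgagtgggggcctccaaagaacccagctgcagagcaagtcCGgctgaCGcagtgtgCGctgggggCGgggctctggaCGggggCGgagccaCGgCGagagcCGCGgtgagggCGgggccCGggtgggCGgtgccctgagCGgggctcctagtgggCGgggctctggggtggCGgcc
APCDD1 start, without a peak: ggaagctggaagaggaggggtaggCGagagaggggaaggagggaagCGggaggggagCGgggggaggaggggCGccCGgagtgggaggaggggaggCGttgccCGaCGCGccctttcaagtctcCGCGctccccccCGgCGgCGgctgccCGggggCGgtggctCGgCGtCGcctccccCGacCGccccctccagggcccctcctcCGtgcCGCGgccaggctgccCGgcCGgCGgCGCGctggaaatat
The first holds 4 CG, the second 20 and the third 29. APCDD1 thus had more CG before its start than the TNFRSF19 start under a peak. The window of APCDD1 had no peak over it, but the only peak of the gene began 80 bases after the start. These windows were picked for display, and over all genes 81.8% of windows with at least 60% G+C were under a peak. The part of CpG content was not tested.

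AXIN2 and NKD1 complete the targets. AXIN2 encodes a scaffold of the β-catenin destruction complex and is widely used as a readout of Wnt signalling. It (chromosome 17, 33.1 kb) carried 2 peaks, compared with a median of 4 (24.7 percentile, 17.1 to 42.9 under the alternative settings). The one at its end of higher coordinate, chr17:65561009-65562227, was 1219 bp long with 24.8 tags and a fold of 4.10, at the 26.1 percentile of pileup among end peaks, and the inside one, chr17:65556424-65556714, had 19.8 tags and a fold of 4.20. NKD1 encodes a Dishevelled-binding inhibitor. It (chromosome 16, 100.9 kb) carried 6 peaks (48.6 percentile), with 2 at its end of lower coordinate of 18.5 and 12.7 tags. The tallest, chr16:50611516-50611947, lay inside with 25.6 tags and a fold of 7.04. The other inside peaks of NKD1 had 8.10 to 10.9 tags, and with peaks of at least 4-fold only the gene kept 2 peaks, at the 21.3 percentile.

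Set side by side, the members were split in height. The highest pileup of TCF7L1, TCF7L2 and ZNRF3 (78.9, 76.7 and 69.5 tags) stood at the 90.4, 88.2 and 82.2 percentiles of genes of similar length. The peak of ZNRF3 also lay within 1 kb of an end of ZNRF3-AS1. Its next tallest, with 40.95 tags, would stand below the median of its length neighbours, 50.3 tags, in which such shared peaks are kept. The other 7 members lay below the median of their neighbours, at 49.7 to 52.8 tags. From the highest down these were RNF43 with 41.4 tags, TNFRSF19 with 39.2, TCF7 with 35.7, NKD1 with 25.6, AXIN2 with 24.8, LEF1 with 19.0 and APCDD1 with 8.27. The peak of RNF43 is the one shared with SUPT4H1 and TSPOAP1-AS1, and that of TCF7 also lay within 1 kb of an end of VDAC1. The tallest other peaks of RNF43 and TCF7, with 33.1 and 31.7 tags, would both stand below that of TNFRSF19. One library gives no spread by which neighbours in this order could be told apart. By position, the median pileup of the 12 peaks at ends was 21.6 tags, compared with 40.1 tags over the 15869 end peaks of all protein-coding genes. The 68 inside peaks had a median of 20.3 tags, compared with 20.5, and the 9 flank peaks 12.3 tags, compared with 26.3. Median folds were 4.36 at ends, 4.28 inside and 3.79 in flanks, compared with 4.71, 4.39 and 4.3.

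**Figure D3:**
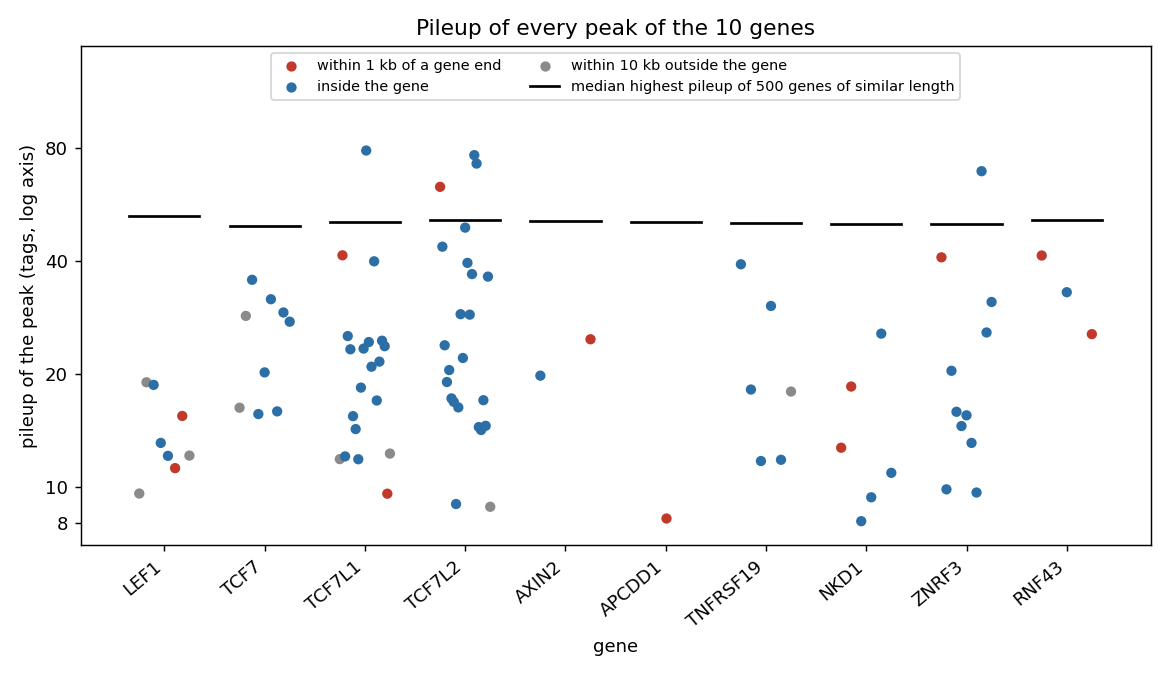
Pileup in tags (log axis) of each of the 89 peaks by gene, coloured by position; horizontal lines give the median of the highest pileup over the 500 genes nearest in length. Peaks of TCF7L1, TCF7L2 and ZNRF3 rise above the line, and the single peak of APCDD1 lies at 8.27 tags.

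Start sites were compared next. RefSeq promoter windows were given for 7 members, with 12 starts. The set covers 15843 of the 20037 protein-coding genes, so starts can be missing from it. A peak lay over 6 of the 12 windows, compared with 64.8% of the 22199 listed starts of protein-coding genes, and over at least 1 window of 5 of the 7 members, compared with 70.2% of genes. LEF1 and APCDD1 were without one, though the peak of APCDD1 began 80 bases after its start. The outermost listed start was under a peak in 4 of the 7, compared with 66.9% of genes. Over all genes, 81.8% of windows with at least 60% G+C were under a peak, and 22.9% of those under 50%. Of the member windows, 6 had at least 60% G+C, of which 4 were under a peak (TCF7 first, TCF7L1, TCF7L2 first and TNFRSF19 second) and 2 were not (APCDD1, with 76.0%, and TCF7 second, with 61.0%). Of the 5 windows under 50%, 1 was under a peak, the second start of TCF7L2 with 42.7%. The part of base composition in these values was not tested.

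**Figure D4:**
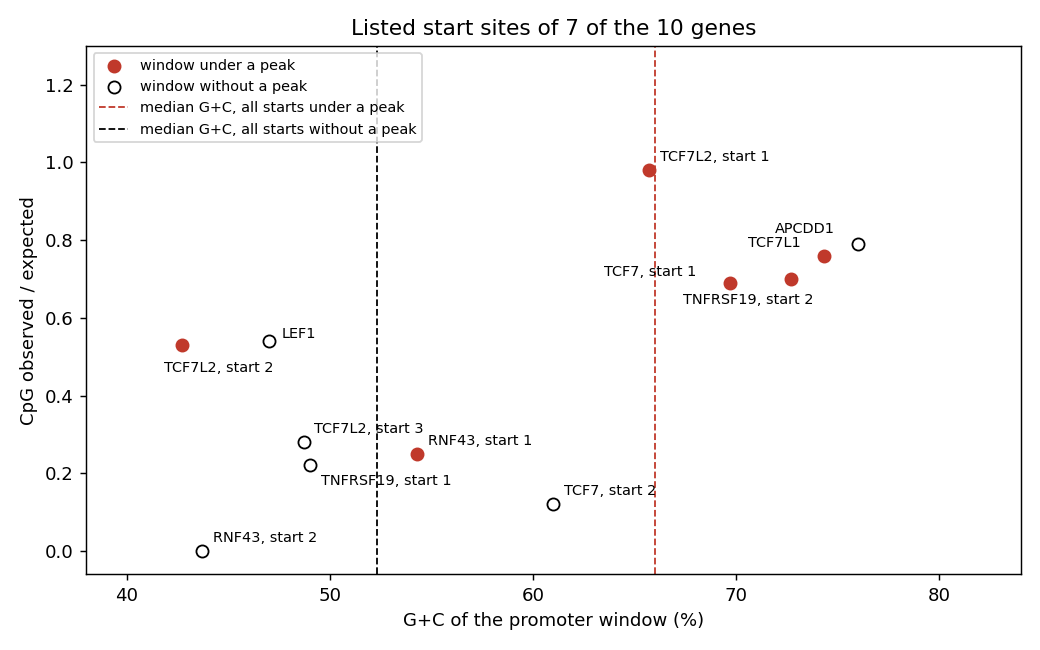
Each point is 1 listed start of 7 genes, by the G+C of its 300-base promoter window (%) and the ratio of observed to expected CpG; filled points are under a peak. Dashed lines give the median G+C of all listed starts under a peak (66.0%) and without one (52.3%); the second start of TCF7L2 is under a peak at 42.7% and APCDD1 is without one at 76.0%.

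The promoter windows were searched on both strands for the TCF/LEF word CTTTGNN, with A or T at each N. It was found in 2 of the 12 member windows, those of the second starts of TCF7L2 and TCF7 given above, and in 11.2% of all listed starts. Among all starts the share was 8.1% under a peak and 17.0% without one. The AP-1 word TGANTCA, which reads the same on both strands, was found at the second start of RNF43 and in 6.2% of all starts. The ETS word GGAAG was found in 10 of the 12 windows and in 73.7% of all starts. A match describes letters in the window and is not evidence of binding, and peaks away from starts could not be searched without a genome.

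The rest of the pathway was described from 6 lists with 115 genes, all of which matched the gene table. A peak at an end was found for 17 of 24 ligand genes, 20 of 21 receptors and coreceptors, 18 of 18 cytoplasmic components, 19 of 19 nuclear cofactors, 12 of 15 secreted inhibitors and 15 of 18 other Wnt targets, beside the 72.8% of all protein-coding genes. The median over genes of the highest pileup, in the gene or 10 kb on either side, was 65.2 tags for the cytoplasmic components and 58.8 for the cofactors. It was 41.2 for receptors, 39.0 for other targets, 31.4 for secreted inhibitors and 26.4 for ligands. These medians stand beside 37.5 for the 10 members and 47.4 for all protein-coding genes. The tallest end peak of each list was at GSK3A, a kinase that marks β-catenin for destruction (123.5 tags), TBX3, a transcription factor (107.5), the corepressor TLE4 (97.6), the secreted antagonist DKK1 (79.8), the receptor FZD1 (72.0) and the ligand WNT9A (53.8). The WNT9A peak also lay at an end of LOC124904533. No peak in the gene or within 10 kb was called for FZD10, DKK2 or MSX2.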

How the data were processed

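Peaks were called by the authors on 1 ATAC library with MACS 2.2.7.1 in broad mode, without a control and in single-end mode, with a shift of -100 bp and an extension of tags to 200 bp, per the file headers. The caller's effective genome size was 1870000000 bp, its mouse preset, which sets the background floor of 2.37 tags. That floor enters the fold and the q-value of peaks in quiet regions, and so which regions were called. The deposited list gives per peak the pileup signal, the fold enrichment ratio and −log10 p-values and q-values; these are the authors' values and were used only within this list. The submitters' processing notes name Bowtie2, SAMtools 1.13, Picard and MACS2, and the builds GRCh38 and mm10, without roles. Peak positions were checked against the RefSeq gene table (GRCh38.p14): on the 9 chromosomes of the members, more peaks lay at protein-coding gene ends without an offset than at any of the offsets tried from 2 to 50 kb.

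Overlaps of at least 1 bp were counted in Python 3.11.15 with pandas 2.3.3, tested on simulated peaks. Each gene was set against the 250 shorter and 250 longer protein-coding genes nearest in length. Local background was solved as (pileup + 1) / fold − 1. The gene table has no strand; strand came from the RefSeq promoter table, which was matched for 7 members, and AXIN2, NKD1 and ZNRF3 were placed by coordinate. All 10 members were named; of each pathway list, the gene with the tallest end peak and at most 2 without any peak were named. The members and lists were chosen with earlier results of these data known. RNA tables were not used.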

Additional observations from a re-analysis of the deposited data

How the results depend on the processing

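The 89 peaks of the 10 genes became 58 when the −log10 q had to reach 5, 50 with peaks of at least 4-fold and 135 with flanks of 50 kb, as fewer peaks or wider flanks must give. The median length percentile of the members, 51.0, was 45.5 with the q filter, 56.7 with flanks of 5 kb, 41.5 for summed peak length and 81.1 against all protein-coding genes; the cause was not tested. Between 6 and 9 members had an end peak under the settings run: LEF1 and APCDD1 lost theirs with the q or fold filter (background 66.7% and 56.0%), LEF1 and TCF7L2 when peaks at ends of several genes were left out (43.8%), and TCF7 gained one with windows of 2500 bp (79.2%). TCF7, TCF7L1 and TCF7L2 stayed at or above the 77.4 percentile of peak number or summed length in each setting run; against length neighbours, NKD1 ran from 20.6 to 61.9, LEF1 from 18.1 to 58.3, RNF43 from 24.7 to 49.8, AXIN2 from 17.1 to 42.9 and APCDD1 from 3.3 to 29.3. Of 301 alternative values over all results and genes, 207 stayed near the reported one (within 1.5-fold for counts, a 95% exact binomial interval for percentiles, a 95% Poisson interval for pileups) and 94 moved. The tally does not measure robustness, since some settings could change little. An example was an overlap of at least 200 bp with the gene or window, which left the 89 peaks and the 8 members with an end peak unchanged. Over all protein-coding genes, the share with an end peak went from 72.8% to 71.5%. With the word CTTTGAT alone, 0 member starts had a match, compared with 2.0% of all starts. Leaving out peaks at ends of several genes, and the alternatives for start sites, were chosen after seeing the data. The planned RNA levels were not run. No paired analysis was possible because the ATAC group has 1 library. No region under 8.0 tags was called, so a missing peak does not show closed chromatin. The part of depth and of the caller's settings in this was not tested.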
